A study of Mus musculus with 18 samples.

Results

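The 6 vehicle tumours among the 18 melanoma allografts of the series are described here, and no treated tumour is set against them. They were chosen by the word vehicle in their titles, and the series design counts them as biological replicates. All of them grew from iNRAS-475, a single mouse melanoma cell line, injected into the dermis of nude mice whose drinking water held 2 mg/ml doxycycline. They measured 200 to 500 mm3 at 6 weeks, and the hosts were given vehicle. The remaining 12 tumours received a MEK inhibitor or were withdrawn from doxycycline and were not used. In iNRAS lines doxycycline keeps an NRAS transgene switched on. As published for this model, a tyrosinase promoter directs the system to melanocytes of mice that lack Ink4a and Arf, while the labels name neither the promoter nor the mutation, nor the sex of the hosts. Nude mice lack a thymus and with it most T cells. Each array read the RNA of about 50 mg of 1 tumour with the skin trimmed off, so every value mixes tumour cells with the host cells in that piece.

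RAS proteins pass growth factor signals to the kinases RAF, MEK and ERK. Active ERK switches on a set of transcripts, among them its own feedback inhibitors of the DUSP, Sprouty and Spred families, the AP-1 and EGR transcription factors and cyclin D1. Melanocytes descend from the neural crest, where SOX10 and PAX3 act upstream of MITF, the transcription factor that controls the enzymes and melanosome proteins of pigment synthesis. Melanomas can keep this pigment program, or lose it and keep neural crest and mesenchymal transcripts.

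Each tumour was read on a one-colour Affymetrix array with 45037 probe sets. The values are probe set intensities, taken as linear, and the array medians lay between 73.1 and 75.9. Pairs of tumours correlated across all probe sets at 0.9913 (tumours 2 and 6) to 0.9963 (tumours 4 and 5) on the log2 scale. The labels give no batch or date. Each of 18193 genes was represented by its brightest probe set and ranked by its mean log2(intensity + 16) over the 6 tumours, with the percentile counted among all of them. A rank orders probe sets, whose brightness depends on their probes as well as on the RNA, so it is no order of transcript numbers. As a floor served the 95th percentile of 70 olfactory and vomeronasal receptor genes, which work in the nose, at an intensity of 38.3. Above the floor in all 6 tumours were 12541 of 18193 genes (68.9%), the background for the counts of genes above the floor below. The median gene had an intensity of 178. Where 3 values are given together, they are those of the lowest, the median and the highest of the 6 tumours.

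The brightest probe sets belonged to the translation machinery, the cytoskeleton and matrix. Of the 25 genes with the highest means 13 have ribosomal protein symbols, counted as Rpl, Rps or Rplp with a number. Of the top 100 genes 32 do, out of 49 genes with such symbols measured. Symbols of another form, such as Rpsa at rank 26, are outside this count. Rank 1 was held by Lgals1, which encodes the carbohydrate-binding protein galectin-1, at 39190, 42690 and 44480. Tpt1, Rpl41, Rps29 and the elongation factor gene Eef1a1 followed. Apod, which encodes the lipid carrier apolipoprotein D, had rank 6 at 26920, 30030 and 31660. Both thymosin genes Tmsb4x and Tmsb10, the actin gene Actb and the intermediate filament gene Vim were also among the first 25. Of matrix genes the collagen genes Col3a1 (26320, 28010 and 30610) and Col1a2 (25150, 26410 and 30360) were there, with Sparc and Igfbp7. The tumours differed little in these 25 genes: the highest exceeded the lowest by at most 1.23 times, in Vim and in Rps4x.

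**Figure D1:**
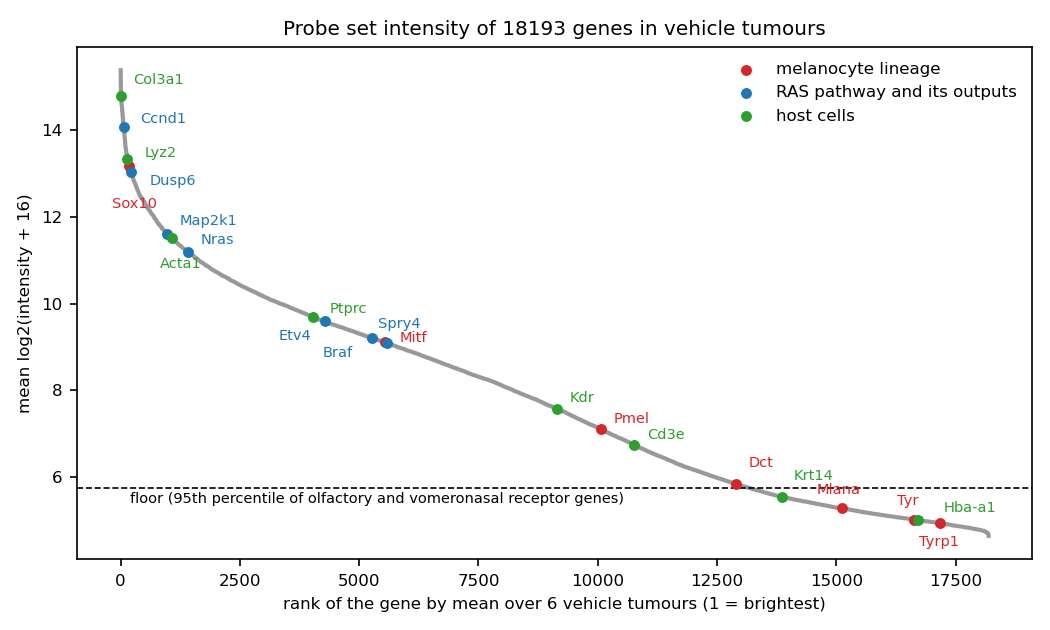
Mean log2(intensity + 16) over the 6 vehicle tumours (y) against the rank of each of 18193 genes (x, grey line). Dots mark genes of the melanocyte lineage (red), the RAS pathway and its outputs (blue) and the host cell lists (green). Of the green genes Col3a1 is a matrix gene, and mesenchymal tumour cells can express several matrix genes too. The dashed line is the floor. Sox10, Ccnd1 and Dusp6 sit among the brightest probe sets, whereas Tyr, Tyrp1 and Mlana lie under the floor.

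The lineage transcription factors Sox10, Mitf and Pax3 were above the floor in each tumour, while several genes of melanin synthesis were not. Sox10, the neural crest transcription factor of the lineage, had rank 178 with intensities of 8258, 9162 and 10310. Mitf was at 512.5, 544.3 and 548.8, the 69.5th percentile, and Pax3 at 459.5, 493.9 and 518.3. All 6 tumours were alike in these factors, the highest exceeding the lowest by 1.25 times for Sox10, 1.07 times for Mitf and 1.13 times for Pax3. Tyr, the enzyme that starts melanin synthesis, was at 15.42, 16.67 and 17.5. Tyrp1, a further melanin enzyme, was at 12.59, 14.08 and 18.1, and the melanosome antigen gene Mlana at 19.14, 21.96 and 27.72. These 3 genes, and likewise Oca2, Gpr143 and Trpm1, were under the floor in each tumour. Dct, the tautomerase of the pathway, lay on both sides of it, from 30.13 in tumour 3 to 53.22 in tumour 6. Pmel, which forms the fibrils of the melanosome, was above it in each tumour at 101.1, 122.9 and 137.9. Of the 19 pigment cell markers measured 10 were above the floor in all tumours, against 68.9% of all genes. The median percentile of the 19 was 39.6, and 1 of them was in the top 10 percent. Sox10, Pax3 and Mitf were thus above the floor by their brightest probe sets, while the defining enzyme genes Tyr and Tyrp1 were not. The other probe set of Mitf was under the floor in each tumour, at 16.77, 19.64 and 23.06.

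A few lineage genes differed between tumours. Ednrb, the endothelin receptor of melanoblasts, was at 599.3 in tumour 6, 112.2 in tumour 5 and 224 to 312.7 in the other 4. Mlph, which links melanosomes to their motor, had tumour 6 lowest at 318.6, against 504 to 685.6. These were the only wide genes among the 13 pigment cell markers tested for spread, wide meaning that the SD on the log2 scale was over 2 times the typical SD of genes of like intensity, which held for 8.44% of all genes tested. Neither passed the adjusted threshold of the spread test described below (limma adjusted p = 0.168 for Ednrb and 0.384 for Mlph).

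The promoters of 3 melanin enzyme genes are shown because their probe sets lie at or under the floor in tumours with Sox10 and Mitf above it. MITF is known to bind E-box sequences with the letters CATGTG. In RefSeq windows of build GRCm38.p6, from 250 bases before to 50 bases after a transcript start, CATGTG was searched on both strands and stands in 14.2% of all 32851 windows. Of the pigment cell markers 12 genes matched the table, with 17 windows. The letters stand in 7 of these windows (41.2%), of the 6 genes Dct, Mc1r, Oca2, Trpm1, Tyr and Tyrp1. Matches are in capitals, written 5′ to 3′ along the gene, and positions count from the start with minus signs before it. The Tyr window is chr7:87493463-87493762 on the minus strand, with the match at -21. The Tyrp1 window is chr4:80833963-80834262 on the plus strand, with the match at -46. The Dct window is chr14:118052197-118052496 on the minus strand, with matches at -232, read on the opposite strand, and at -150.
Tyr: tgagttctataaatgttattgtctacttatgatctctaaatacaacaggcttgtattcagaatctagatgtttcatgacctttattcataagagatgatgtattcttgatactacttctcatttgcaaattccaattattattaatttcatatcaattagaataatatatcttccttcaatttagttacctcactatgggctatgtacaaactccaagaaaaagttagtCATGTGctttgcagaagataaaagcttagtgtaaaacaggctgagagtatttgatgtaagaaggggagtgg
Tyrp1: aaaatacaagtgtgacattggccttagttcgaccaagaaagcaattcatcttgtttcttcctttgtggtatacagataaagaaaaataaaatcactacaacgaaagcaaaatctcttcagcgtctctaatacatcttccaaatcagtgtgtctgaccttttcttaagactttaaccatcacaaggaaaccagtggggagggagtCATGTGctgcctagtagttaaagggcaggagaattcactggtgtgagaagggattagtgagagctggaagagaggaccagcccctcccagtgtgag
Dct: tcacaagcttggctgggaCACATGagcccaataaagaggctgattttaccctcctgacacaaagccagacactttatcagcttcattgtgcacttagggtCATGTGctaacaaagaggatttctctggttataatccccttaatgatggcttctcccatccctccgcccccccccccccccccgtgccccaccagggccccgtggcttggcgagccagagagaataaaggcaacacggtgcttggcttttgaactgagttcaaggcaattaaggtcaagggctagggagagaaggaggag
A match describes the letters in the window and is no measured site.

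Neural crest and mesenchymal genes were bright in all tumours. Of 25 such genes 24 were above the floor, 13 were in the top 10 percent of genes, and the median percentile was 90.7. Nt5e, which encodes the ecto-enzyme CD73, was at 11640, 17320 and 20910, with tumour 6 apart from the other 5, which lay at 16540 to 20910. Its SD was 3.32 times the typical SD. The hyaluronan receptor gene Cd44 also had tumour 6 lowest, at 5825 against 7421 to 8251. The transcription factor gene Sox4 was at 9556, 10510 and 12380, the receptor kinase gene Axl at 5549, 5858 and 7302 and the intermediate filament gene Nes at 4661, 5769 and 5968. Ngfr, the nerve growth factor receptor gene that marks neural crest cells, was at 3874 in tumour 2 and 2323 to 2931 in the other 5. Zeb1, Zeb2, Snai2 and Twist1 encode repressors of the epithelial state and were at medians of 3232, 1708, 1904 and 934.3. Cdh1, which encodes the epithelial adhesion protein E-cadherin, was under the floor in each tumour at 25.53, 31.62 and 34.48, whereas Cdh2, which encodes N-cadherin, was at 1933, 2197 and 2344. Wide were 8 of the 25 genes, against 8.44% of all genes tested. Among them were the glial calcium-binding protein gene S100b (1499, 2206 and 2798) and the stem cell factor gene Sox2 (439.8, 553.3 and 692.1).

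Genes shared with Schwann cells, the glia of peripheral nerves, were above the floor for 7 of 7 measured, from a list of 10. The adhesion gene Cdh19 was at 3046, 3449 and 4421 and the myelin protein gene Pmp22 at 2236, 2557 and 2830. The myelin regulator gene Egr2, which is also on the list of early response genes described below, was at 2769, 3155 and 4123. Mbp, which encodes myelin basic protein, was at 872.6 in tumour 6 and 101.2 to 242.6 in the other 5. Of its 8 probe sets 6 were highest in tumour 6, but not the next brightest (r = -0.563 with the chosen one over the 6 tumours). Tumour 6 was also highest for the sodium channel gene Scn7a at 471.9, against 181.7 to 334, and for Ncmap, a myelin protein gene, at 159.6, against 67.74 to 119.3.

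Kinases and adaptors between RAS and ERK had a spread close to that of genes at large. All 16 measured were above the floor, at a median percentile of 85.0. Wide were 0 of 16, against 8.44% of all genes tested, and their median SD was 0.11 against 0.127 over all genes tested. Nras itself was at 2184, 2291 and 2524, the 92.3rd percentile. The labels do not say whether its probe sets read the transgene. Map2k1, which encodes MEK1, was at 2778, 3190 and 3291, and Map2k2, which encodes MEK2, at 1487, 1586 and 1848. The phosphatase gene Ptpn11, which acts upstream of RAS, was at 2949, 3113 and 3295. Of the RAF kinases Braf was at 496, 573.7 and 637.3 and Araf at 390.9, 416.2 and 468.1. Nf1, whose protein inactivates RAS, was above the floor in each tumour at 477, 553.1 and 593.7. Among these 16 genes the highest tumour exceeded the lowest by at most 1.45 times, in the scaffold gene Ksr1.

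ERK-controlled transcripts were among the brightest. All 23 measured were above the floor, 11 were in the top 10 percent, and the median percentile was 89.6. Ccnd1, which encodes cyclin D1, had rank 64 at 14920, 17600 and 17890. The chromatin protein gene Hmga2 was at 7735, 8373 and 9124. Dusp6, a phosphatase that acts on ERK as feedback, was at 7412, 8337 and 9135, and Dusp4, a nuclear phosphatase of the same family, at 4295 in tumour 6 and 5557 to 6040 in the other 5. The growth factor genes Hbegf and Ereg were at 5632, 5886 and 6362 and 1858, 2333 and 2806. Of the feedback inhibitors Spred1 was at 2616, 3311 and 3674 and Spry2 at 1596, 1956 and 2161. Spry4 was at 773.5 and 676.4 in tumours 3 and 5 and 427.3 to 472.2 in the other 4. Its next brightest probe set, at 189.8 to 272.1, was also highest in tumour 3 but had tumour 5 below tumours 1 and 2. A dimmer one, at 37.65 to 68.26, again had tumours 3 and 5 highest. The ETS factor genes Etv4 and Etv5 were at 711.9, 760.2 and 794.2 and 1012, 1058 and 1326. Etv4 was among the steadier genes, with an SD 0.502 times the typical SD. Wide were 5 of the 23, Dusp5, Spry4, Egr1, Myc and Ereg, against 8.44% of all genes tested.

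**Figure D2:**
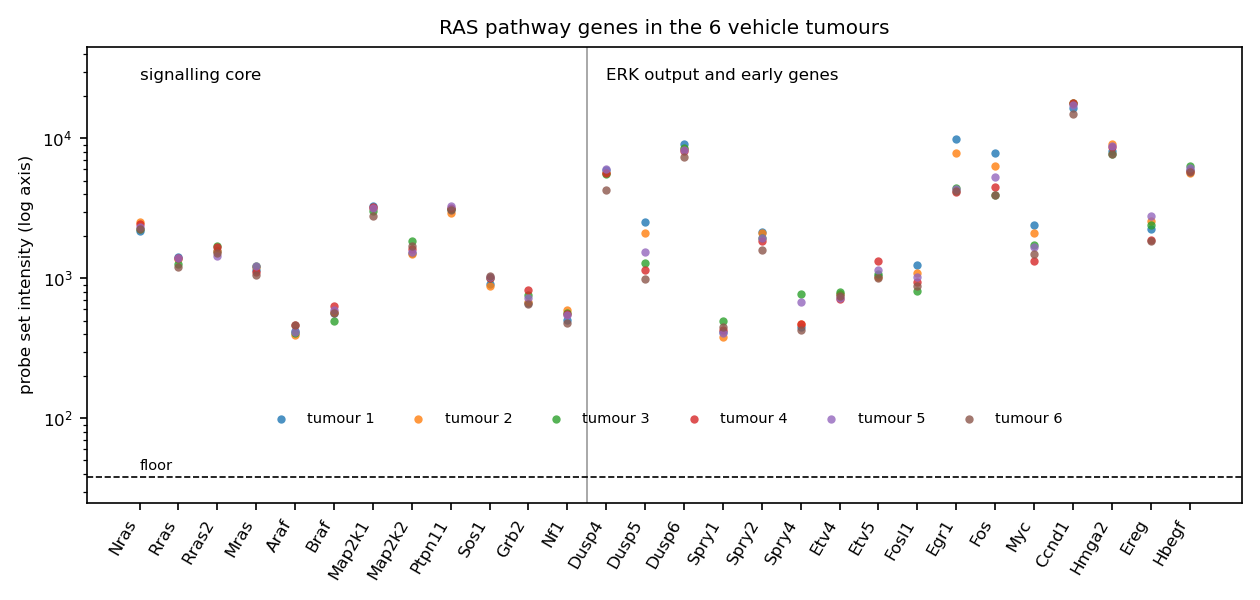
Probe set intensity on a log axis (y) of 28 RAS pathway genes (x) in each of the 6 vehicle tumours, 1 coloured dot per tumour; the dashed line is the floor. Core genes overlap closely between tumours, while Egr1, Fos, Dusp5 and Myc are highest in tumours 1 and 2.

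Early response genes, which cells switch on within minutes of a stimulus, differed between tumours. Egr1 was at 9977 and 7870 in tumours 1 and 2 and 4164 to 4419 in the other 4. Fos was at 7890 and 6349 in the same tumours, against 3912 to 5305. Dusp5, a nuclear ERK phosphatase gene, was at 2508 and 2110, against 984.6 to 1542. In each of these genes tumours 1 and 2 did not overlap with the other 4. The same held for Myc at 2420 and 2106 against 1336 to 1739, Junb at 750.3 and 776.5 against 449.3 to 593.8, Ier2 at 984.4 and 1010 against 576.1 to 687.8 and Egr3 at 3051 and 2914 against 1867 to 2658. Not all early genes followed this order: Nr4a2, an orphan nuclear receptor gene, was lowest in tumour 2 at 1008 and highest in tumour 3 at 1819, and Jund only ran from 1254 to 1470. Of 16 early genes 7 were wide, against 8.44% of all genes tested. Tumours 1 and 2 were the highest pair in 5 of these 7, which was so for 13.5% of all wide genes. Heat shock genes Hspa1a and Hspa1b, singled out after their values were seen, were highest in tumours 1 and 5, with Hspa1a at 517.1 and 519.6 there and 164.7 to 322.2 in the other 4. None of the early or heat shock genes named here passed the adjusted threshold (limma adjusted p = 0.154 for Egr1, 0.238 for Fos and 0.168 for Hspa1a).

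The PI3K pathway, another route below RAS, likewise had a spread close to that of genes at large. All 14 genes were above the floor, at a median percentile of 76.0. Wide were 0 of 14, against 8.44% of all genes tested, and their median SD was 0.1 against 0.127 over all genes tested. Rheb, the small GTPase that activates mTOR, was at 4806, 5225 and 5549, and the catalytic subunit gene Pik3cd at 4542, 5069 and 5478. Akt1 was at 2454 in tumour 4 and 2103 to 2218 in the other 5. Of the receptor tyrosine kinases, which start these signals, 18 of 19 were above the floor. Pdgfra, Erbb3 and Pdgfrb, receptors for platelet-derived factors and neuregulin, were at medians of 5679, 5367 and 4078. Kit, the receptor of melanocyte precursors, was at 72.63, 84.51 and 93.82, and Erbb4 was under the floor with a highest value of 11.67. The wide receptor genes each had another tumour at the top. Ret ran from 56.03 in tumour 6 to 188.3 in tumour 1, Met was at 632.1 in tumour 2 against 288.7 to 371.8, and Egfr at 698.3 in tumour 6 against 406.4 to 530.

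Among CDK inhibitors, the brakes of the cell cycle, Cdkn1a and Cdkn2b were far above the floor. Cdkn1a, which encodes p21, was at 3692, 3928 and 4112, and Cdkn2b, which encodes p15, at 3056, 3220 and 3658. Cdkn2a, the gene of Ink4a and Arf, was under the floor in tumours 1 and 2 at 33.01 and 24.5, and reached 65.44 and 86.71 in tumours 3 and 6. It was the only wide gene of the 12 on its list, against 8.44% of all genes tested. Proliferation genes were above the floor in 18 of 19 cases. The polymerase clamp gene Pcna was at 5776, 6353 and 7133, the topoisomerase gene Top2a at 1679, 1921 and 2370 and the proliferation marker Mki67 at 1232, 1399 and 1650. Tumour 2 was highest in 16 of the 18 genes above the floor and tumour 5 lowest in 13 of 18. Among all wide genes tumour 2 was highest in 20.6% and tumour 5 lowest in 23.1%. Only 4 of the 19 proliferation genes were wide, so these shares are of unlike sets. No share over all genes above the floor was computed. The mean log2 value of the 18 genes was 9.83 in tumour 2 and 9.28 in tumour 5. Tk1, which encodes thymidine kinase, had the largest SD of the list, with 676.1 in tumour 2 and 330.6 to 442.9 elsewhere.

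Glycolysis genes were bright, with 14 of 14 above the floor and a median percentile of 95.1. Pgk1 and Aldoa, enzymes of the middle of the pathway, were at 11280, 13990 and 14860 and at 9373, 10810 and 12310. Ldha, lactate dehydrogenase A, was at 6291, 7802 and 9841. Tumour 2 was highest in 10 of the 14 and tumour 6 lowest in 7, against 20.6% and 17.9% of all wide genes. Only 4 of the 14 were wide, so these shares are of unlike sets. Transcripts induced by low oxygen had tumours 3 and 6 at their low end. Bnip3, a mitochondrial protein gene and target of hypoxia-inducible factor, was at 2500 and 2165 in these tumours and 4449 to 5725 in the other 4. Pdk1, which keeps pyruvate out of mitochondria, was at 334.4 and 316.8 against 478.3 to 663.1, and the glucose transporter gene Slc2a1 at 1939 and 1972 against 2748 to 3512. Egln3, an oxygen-sensing hydroxylase gene, was at 53.91 and 68.95 against 99.07 to 246.1. These 4, with Ankrd37, Stc1, Ero1a and Ak4, make 8 oxygen-regulated genes singled out after their values were seen, and tumours 3 and 6 were the lowest pair in each of them, which the choice of genes fixed. On the list of 14 hypoxia targets, 6 were wide, against 8.44% of all genes tested. Tumours 3 and 6 were the lowest pair in 5 of these 6, against 9.65% of all wide genes. The adjusted p of Bnip3 was 0.134 in limma. Other targets differed less, Vegfa at 497.9, 575.1 and 665.2 and Car9, close to the floor, at 44.33, 51.03 and 55.56. The mean over the 14 hypoxia targets was 9.26 and 9.27 in tumours 3 and 6 and 9.64 to 9.83 in the other 4, on the log2 scale.

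Host cells left clear traces, and in a bulk sample fewer cells of a type and less RNA per cell cannot be told apart. Fibroblast and matrix genes had the highest median percentile of the 32 lists, 97.8, with 19 of 19 above the floor; mesenchymal tumour cells can express several of them too. Fn1, which encodes fibronectin, was at 20600, 22820 and 23740. The matrix gene Tnc, for tenascin C, was at 10360 and 13110 in tumours 3 and 6 and 5649 to 7583 in the other 4. Mfap5, a microfibril gene, was at 4170 in tumour 6 and 1332 to 2430 elsewhere, and the dermal gene Dpt ran from 304.5 in tumour 5 to 1065 in tumour 6. The list mean was likewise lowest in tumour 5, at a log2 value of 12.15, and highest in tumour 6, at 12.61.

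**Figure D3:**
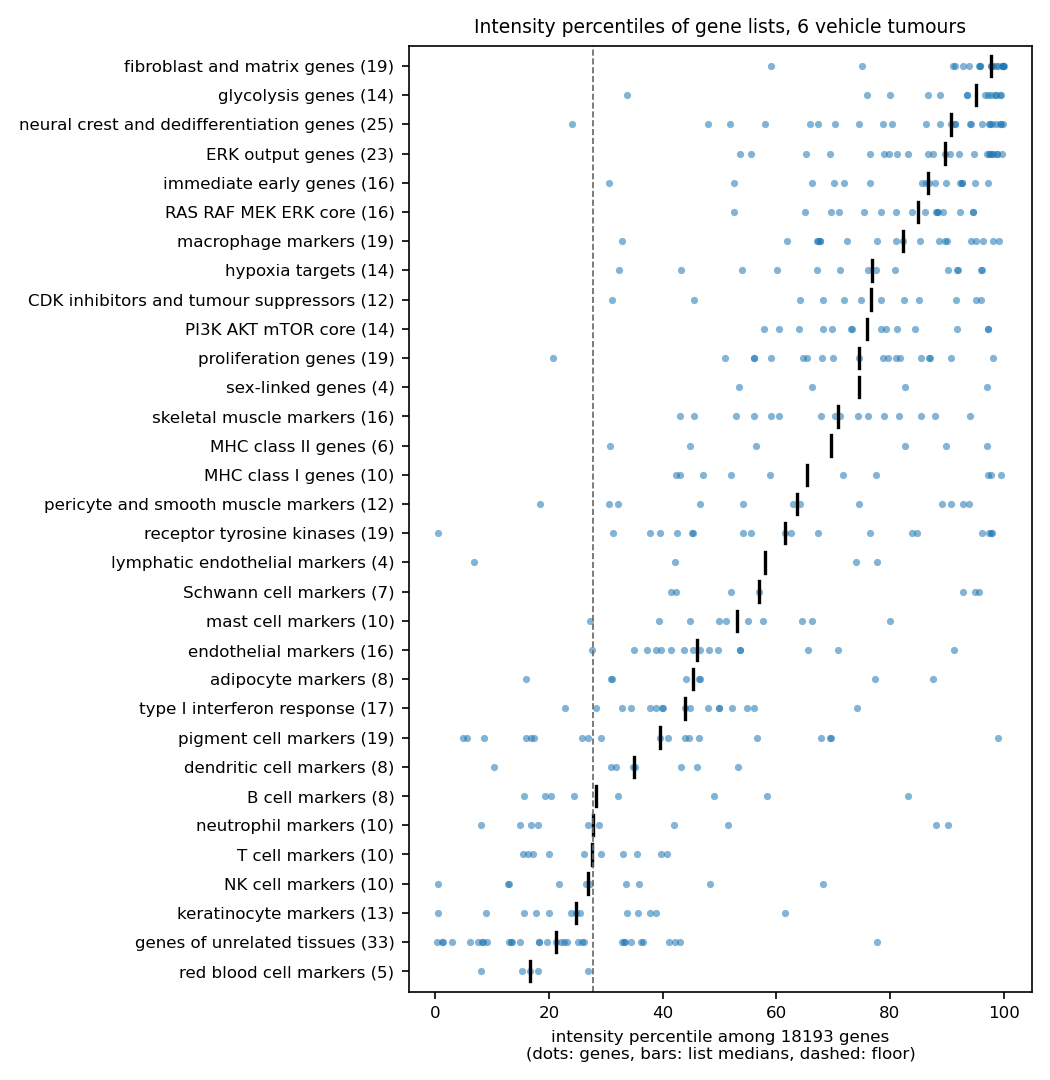
Intensity percentile among 18193 genes (x) of the measured members of 32 gene lists (y), from means over the 6 vehicle tumours; dots are genes, bars list medians and the dashed line the floor. Matrix, glycolysis, neural crest and ERK output lists lie high, and pigment cell markers spread from 4.86 (Gpr143) up to Sox10 near the top.

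Macrophage markers were above the floor for 18 of 19 genes, at a median percentile of 82.3. Lyz2, lysozyme of myeloid cells, was at 7133, 10590 and 12650, and C1qa, a complement gene that macrophages express, at 4679, 6315 and 8100. Csf1r, the receptor that macrophages need to survive, was at 6009 in tumour 6 and 3882 to 4078 in the other 5. Of the 19 markers 11 were wide, against 8.44% of all genes tested. Tumour 6 was highest in 13 of the 18 above the floor. It was highest in 42.0% of all wide genes, a share of an unlike set, because not all of the 18 were wide. Genes of tissue-resident macrophages, singled out after their values were seen, ran further apart. Cd163, a haemoglobin scavenger receptor gene, was at 191.2 in tumour 5, 1061 in tumour 6 and 414.3 to 618.8 in the other 4. Lyve1, a hyaluronan receptor gene, ran from 315.5 to 1336 and Clec10a, a lectin gene, from 103.2 to 994.4 in the same tumours. Tumours 2 and 6 were the highest pair in 7 of 9 such genes and tumours 4 and 5 the lowest pair in 7 of 9, a description of genes picked for their values. The limma adjusted p was 0.115 for Cd163 and 0.0934 for Clec10a. Ptprc, the pan-leukocyte gene, was at 716.1, 818.7 and 868.8. The fibroblast list mean had the same tumours at its ends, and its part in the macrophage values was not tested.

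Lymphocyte transcripts were mostly low. Of 10 T cell markers 4 were above the floor in all tumours. Cd3e, a chain of the T cell receptor complex, was at 77.64, 89.27 and 112.8, and Cd4 at 71.26, 85.49 and 89.59, while Cd8b1, Cd247 and Cd28 were under the floor in each tumour. Of 10 NK cell markers 3 were above it throughout, and Ncr1, a defining receptor, had a highest value of 22.25. Gzmb, which encodes granzyme B, was nevertheless at 191.8, 560.4 and 995.7, lowest in tumour 1 and highest in tumour 3, while Gzma was under the floor. Of 8 B cell markers Ms4a1, Cd79a and Blk were under the floor in each tumour. Ighm, the heavy chain of IgM, was at 4710 and 2258 in tumours 1 and 2 and 294.7 to 1069 in the other 4. It has 11 probe sets: 3 of the others put the tumours in exactly the same order, while the next brightest did not follow the chosen one (r = -0.0426). Igha, the heavy chain of IgA, singled out after its values were seen, was instead high in tumours 4 and 5, at 763.6 and 837.3 against 95.34 to 316.5.

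Other myeloid cells gave a mixed reading. Of 10 neutrophil markers 4 were above the floor in all tumours. S100a8, a calcium-binding protein gene of neutrophils, ran from 651.3 in tumour 5 to 2896 in tumour 6, and S100a9, its partner, from 90.9 in tumour 5 to 358.5 in tumour 3. The defining granule genes Mpo and Elane and the receptor gene Cxcr2 were under the floor. Mast cell markers were above it for 9 of 10 genes, and 8 of 10 were wide, against 8.44% of all genes tested. The tryptase gene Tpsab1 was at 744.5, 861.4 and 1261 and the carboxypeptidase gene Cpa3 at 310.8, 414.9 and 560.4, with tumour 2 highest in both. Mast cell proteases did not move as 1 block: Mcpt2 was at 786.4 and 1017 in tumours 4 and 5 and 157.5 to 657.4 elsewhere, whereas Mcpt4 was at 248.2 and 366.5 in tumours 1 and 2 and 139.3 to 168.3 elsewhere. Dendritic cell markers were above the floor for 5 of 8 genes, with Xcr1 under it in each tumour.

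Endothelial markers had a median percentile of 46.0, and 15 of 16 were above the floor. Kdr, the main VEGF receptor of vessels, was at 147.4, 160.7 and 238.1, and Cdh5, which encodes VE-cadherin, at 101.6, 135 and 205. Both were lowest in tumour 5 and highest in tumour 6, and 12 of the 15 genes above the floor were highest in tumour 6. Among all wide genes tumour 6 was highest in 42.0%, a share of an unlike set, because only 6 of the 16 endothelial markers were wide. Flt1, a further VEGF receptor gene, went against the order of Kdr and Cdh5, with 1182 in tumour 6 and 2093 to 3218 in the other 5. Of mural cell genes Rgs5 was at 4090 in tumour 1 and 1825 to 2610 elsewhere, and Acta2, smooth muscle actin, at 1485, 2036 and 2635. Of lymphatic endothelial markers 3 of 4 were above the floor, but Prox1, the defining transcription factor, was not, with a highest value of 17.98. Of 9 red blood cell markers 5 were measured, and 0 of these 5 were above the floor in all tumours. The rest of that list was not read, so the count does not settle how much red blood cell RNA was present. Of 33 genes of unrelated tissues 10 were above it, with a median percentile of 21.3, led by Cela1, an elastase gene, at 614.2, 824.3 and 963.4.

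Keratinocyte markers were above the floor in all tumours for 5 of 13 genes, led by the keratin gene Krt10 at 308.9, 350.5 and 389.9, and Krt14, a defining keratin of the basal layer, was at 21.51, 32.69 and 41.53. In tumour 6 genes of the hair follicle stood apart, singled out after their values were seen. Tchh, which encodes trichohyalin of the inner root sheath, was at 213.4 in tumour 6 and 9.274 to 16.56 in the other 5. The keratin gene Krt25 was at 244 against 15.09 to 20.91, and Prr9 at 242.5 against 15.1 to 29.87. Outside tumour 6 these 3 genes were under the floor in each tumour. Krt27, Krt73 and the stem cell receptor gene Lgr5 were highest in tumour 6 as well, with Lgr5 also at 146.1 in tumour 3 beside 204.2. Krt5 was at 84.33 in tumour 6 against 45.72 to 52.53, and the keratinocyte list mean ran from 6.70 in tumour 5 to 6.94 in tumour 6 on the log2 scale. The part of keratinocytes in the follicle values was not tested.

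Skeletal muscle genes were wide without exception, 16 of 16, against 8.44% of all genes tested. Of the 16, 14 were above the floor in all tumours. Acta1, skeletal actin, was at 1782 and 1300 in tumours 4 and 5, 3197 to 3897 in tumours 1 to 3 and 5517 in tumour 6. Ckm, muscle creatine kinase, was at 283.5 and 92.61 in tumours 4 and 5, 603.2 to 953.1 in tumours 1 to 3 and 1126 in tumour 6. Myh4, a fast myosin heavy chain gene, was under the floor in tumour 5 at 25.44 and highest in tumour 2 at 984.2. Tumours 4 and 5 were the lowest pair in 15 of 16 genes, against 14.8% of all wide genes. Tumours 2 and 6 were the highest pair in 13 of 16, against 12.8% of all wide genes. The mean over the 14 genes above the floor ran from 8.13 in tumour 5 to 10.22 in tumour 6 on the log2 scale.

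Adipocyte genes followed another order. Adipoq, which encodes the fat cell hormone adiponectin, was at 588.1 and 313.4 in tumours 1 and 2, and under the floor in tumours 3 and 6 at 27.6 and 32.83. The fatty acid carrier gene Fabp4 ran from 770.3 in tumour 5 to 2319 in tumour 1, and Retn, the resistin gene, from 72.71 in tumour 6 to 249.5 in tumour 1. Of 7 adipocyte genes tested 6 were wide, against 8.44% of all genes tested. Tumours 1 and 2 were the highest pair in 5 of these 6, against 13.5% of all wide genes. Lep, the leptin gene, was under the floor in each tumour.

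Antigen presentation genes were above the floor in all tumours for 10 of 10 genes of MHC class I and 5 of 6 of class II. B2m, the shared light chain of class I, was at 13210, 14140 and 16320, and the heavy chain genes H2-D1 and H2-K1 at medians of 5856 and 5136. The immunoproteasome genes Psmb8 and Psmb9 and the regulator gene Nlrc5 were wide. Each had tumours 4 and 5 as its highest pair, which was so for 7.83% of all wide genes. Nlrc5 was at 141 and 146.8 there, against 77.18 to 100.3. Of class II, H2-Aa was at 3419 in tumour 3 and 4852 to 5866 elsewhere. In the type I interferon list 14 of 17 genes were above the floor, at a median percentile of 44.0. Wide was 1 of 17, Ifit1, against 8.44% of all genes tested. Ifit2, an inhibitor of viral translation, was at 617.3, 666.1 and 755.8 and Irf7, the factor that amplifies the response, at 70.69, 88.48 and 97.17.

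Genes known to be inducible by interferon gamma, singled out after their values were seen, separated tumours 4 and 5 from the rest. Cxcl9, a chemokine gene for activated T cells, was at 443.6 and 497.7 in these tumours and 75.29 to 167 in the other 4. Ccl5, a further chemokine gene, was at 585.8 and 704.3 against 133.9 to 229.7. Iigp1, a GTPase gene that acts against intracellular parasites, was at 814.8 and 926.2 against 219.3 to 381.8. Of related GTPase genes Igtp was at 380.8 and 396.5 against 116.7 to 208.6, Irgm1 at 324 and 321.8 against 101.8 to 245.7 and Gbp2 at 1162 and 1377 against 508.9 to 724. In 8 of 8 such genes, including Gbp6 and Ubd, tumours 4 and 5 lay above the other 4, which the choice of genes fixed. The limma adjusted p was 0.0934 for Ccl5 and 0.101 for Cxcl9, above the threshold. Some lymphocyte markers were high in the same tumours and others were not. Nkg7, a granule gene of NK and cytotoxic T cells, was at 103.7 and 103.5 in tumours 4 and 5 against 33.91 to 45.99, and Cd3d at 84.03 and 94.58 against 45.84 to 58.49. Cd3e was highest in tumour 4 at 112.8, but at 87.02 in tumour 5 it lay within the range of the other 4, 77.64 to 92.93. The mean over the 4 of 10 T cell markers above the floor was 6.63 and 6.59 in tumours 4 and 5 and 6.35 to 6.37 in the other 4, on the log2 scale. The mean over the 3 of 10 NK cell markers above the floor was 7.73 and 7.81 in tumours 4 and 5, but highest in tumour 3 at 7.85, and Ighm was highest in tumours 1 and 2. The part of these cells in the interferon values was not tested.

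The promoters of 3 of these GTPase genes are shown because they were high together in tumours 4 and 5. The interferon element, GAAA followed by any 2 bases and a further GAAA, was searched on both strands and stands in 3.44% of all 32851 windows. It stands in 8 of 15 windows (53.3%) of the 13 matched genes of the type I interferon list and in 3 of 5 matched genes of the set above, Gbp2, Igtp and Irgm1. The AP-1 element TGACTCA, also searched on both strands, stands in as many of these 5 genes, Cxcl9, Gbp2 and Irgm1, and in 5.2% of all windows. The Igtp window is chr11:58199306-58199605 on the plus strand, with the match at -34. The Irgm1 window is chr11:48871371-48871670 on the minus strand, with matches at -30 and -24 that overlap each other. The Gbp2 window is chr3:142620413-142620712 on the plus strand, with the match at -59 read on the opposite strand. Matches are in capitals, and coordinates are those of RefSeq on GRCm38.p6.
Igtp: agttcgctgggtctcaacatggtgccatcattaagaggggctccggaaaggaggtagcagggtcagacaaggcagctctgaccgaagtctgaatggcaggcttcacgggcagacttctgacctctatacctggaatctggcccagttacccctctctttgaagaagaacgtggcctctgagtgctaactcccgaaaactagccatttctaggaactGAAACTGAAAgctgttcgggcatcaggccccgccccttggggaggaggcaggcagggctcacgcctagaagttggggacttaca
Irgm1: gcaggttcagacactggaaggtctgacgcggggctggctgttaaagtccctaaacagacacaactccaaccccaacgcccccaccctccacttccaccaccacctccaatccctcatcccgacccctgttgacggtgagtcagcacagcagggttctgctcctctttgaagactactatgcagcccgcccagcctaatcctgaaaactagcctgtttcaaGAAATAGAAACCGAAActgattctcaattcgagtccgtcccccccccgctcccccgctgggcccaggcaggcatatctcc
Gbp2: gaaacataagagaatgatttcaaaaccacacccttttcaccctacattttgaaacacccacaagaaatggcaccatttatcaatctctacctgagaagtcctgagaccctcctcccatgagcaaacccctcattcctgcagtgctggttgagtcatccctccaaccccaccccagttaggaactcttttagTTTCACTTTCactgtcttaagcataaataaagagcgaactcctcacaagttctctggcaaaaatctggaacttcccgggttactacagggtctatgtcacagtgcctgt
Again a match describes letters and no site was measured.

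Transcripts of both sex chromosomes were above the floor in all 6 tumours. Xist, the RNA that silences an X chromosome, was at 4301, 4847 and 6210, with tumour 6 highest; its 2 other probe sets were highest in tumour 3. The Y-linked genes Eif2s3y, Kdm5d and Uty were at medians of 1054, 435.8 and 232.6. Eif2s3y, a translation factor gene, was lowest in tumour 6 at 776.7 and highest in tumours 4 and 5 at 1288 and 1299, and it was the wide gene of these 4.

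The spread between tumours was tested across 14985 genes whose mean lay above the 25th percentile of all probe sets. The median SD was 0.127 on the log2(intensity + 16) scale, 98.2% of genes had an SD under 0.5, and 24 genes had one over 1. Each gene's variance was set against the variances of genes of like intensity with limma's robust trended prior, with 5 residual and 5.46 prior degrees of freedom. After Benjamini-Hochberg adjustment 12 genes (0.0801%) had an adjusted p under 0.05. An unadjusted p under 0.05 was found for 1049 (7.0%). In limma 0 genes passed with quantile normalization, with the mean of all probe sets of a gene, with a pseudocount of 1, with a filter at the 50th percentile, without the robust step or without the intensity trend, with 785 to 1046 genes at an unadjusted p under 0.05. By the rule of size, which is no test, 1264 genes (8.44%) were wide.

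The 12 genes were Myh4, Mybpc2, Ckm and Myh1 of skeletal muscle, Tchh, Krt25 and Prr9 of the hair follicle, and Adipoq, Ighm, Nptx1, Igfbp2 and Wif1. The 3 hair follicle genes were tested only through tumour 6, so their calls are given as a description. Without that tumour their mean log2 values were 4.84, 5.04 and 5.17, under the filter of 5.3. The calls of the others rest on an adjustment that had these 3 genes in the ranking. It was not recomputed without them, so those calls are likewise given as a description. Igfbp2, a binding protein gene for insulin-like growth factors, was at 1530 in tumour 2 and 72.8 to 280.9 in the other 5. Nptx1, a secreted neuronal pentraxin gene, was at 934.8 in tumour 2 and 42.67 to 168.4 elsewhere. In both genes a single tumour was far above the rest. Wif1, a secreted inhibitor of WNT ligands, was at 175.5 and 98.38 in tumours 1 and 2 and 557.9 to 918.9 in the other 4. The highest tumour exceeded the lowest by 38.7 times in Myh4, 23.0 times in Tchh, 21.9 times in Nptx1 and 9.34 times in Wif1. Their limma adjusted p lay between 0.0471 and 0.0495, close to the threshold of 0.05. Without tumour 3, 4 or 5 limma called 0 genes, with 1002, 992 and 976 genes at an unadjusted p under 0.05, and without tumour 2 it called 25. Without tumour 1 the number was 9 and without tumour 6 it was 10.

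**Figure D4:**
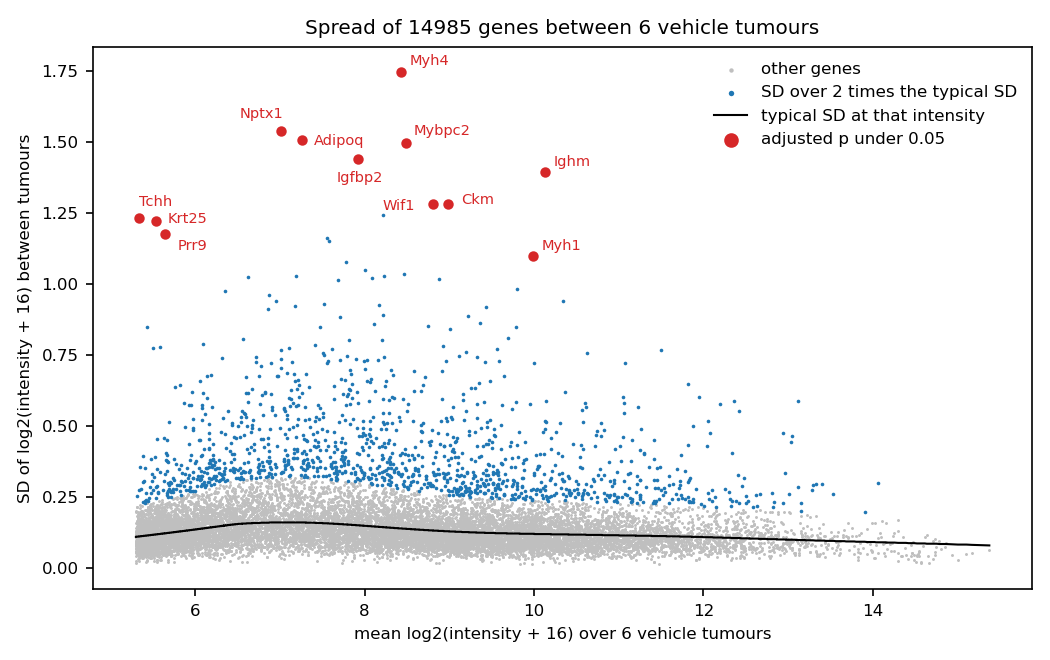
SD between the 6 vehicle tumours (y) against mean log2(intensity + 16) (x) of 14985 genes; blue dots are the 1264 genes with an SD over 2 times the typical SD (black line) and red dots the 12 genes with a limma adjusted p under 0.05. The red genes lie at SDs from 1.1 (Myh1) to 1.75 (Myh4).

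Other genes with a large SD did not pass the threshold. Acan, which encodes the cartilage proteoglycan aggrecan, was at 580.1 in tumour 2 and 64.01 to 126.7 in the other 5. The tight junction gene Cldn1 was at 689 in tumour 6 and 44.55 to 209.5 elsewhere. Saa3, an acute phase protein gene, ran from 335.5 in tumour 5 to 2225 in tumour 6, and Colec11, a collectin gene, was at 317.9 in tumour 1 and 40.07 to 138.5 elsewhere. At the other end, the 10 smallest SDs among genes in the top 50 percent by mean were 0.01 to 0.02, held by Fmr1, Mvb12a, Bag1, Cebpg, Dda1, Itga2b, Ptpn3, Rabepk, Rplp0 and Rps24. Fmr1, the gene of an RNA-binding protein, was at 887.5, 896.4 and 907.

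No single tumour held all of the wide genes. Tumour 6 was highest in 531 of 1264 (42.0%) and tumour 2 in 261 (20.6%), while the lowest value was in tumour 2 for 341 (27.0%) and in tumour 5 for 292 (23.1%). As a pair, tumours 1 and 2 were lowest in 289 wide genes and tumours 3 and 6 highest in 221. A second probe set of a gene gives another reading of the same 6 arrays. Over 569 wide genes with another probe set past the filter the median correlation of both over the tumours was 0.799. Over 6548 other genes it was 0.33. The genes were split by the SD of 1 of the probe sets compared, so this difference is no independent support for the spread. Of the wide genes 49.7% had an r over 0.8, and the lower quartile was 0.43. Cxcl9, Iigp1 and Gbp2 had r of 0.956, 0.977 and 0.974 with their next brightest probe set, Lyve1 0.98, Slc2a1 0.987 and Fabp4 0.999. Of the genes that passed the spread test Myh1 had 0.98 and Nptx1 0.918. Ckm was lower at 0.682, Myh4 at 0.618 and Ighm at -0.0426.

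**Figure D5:**
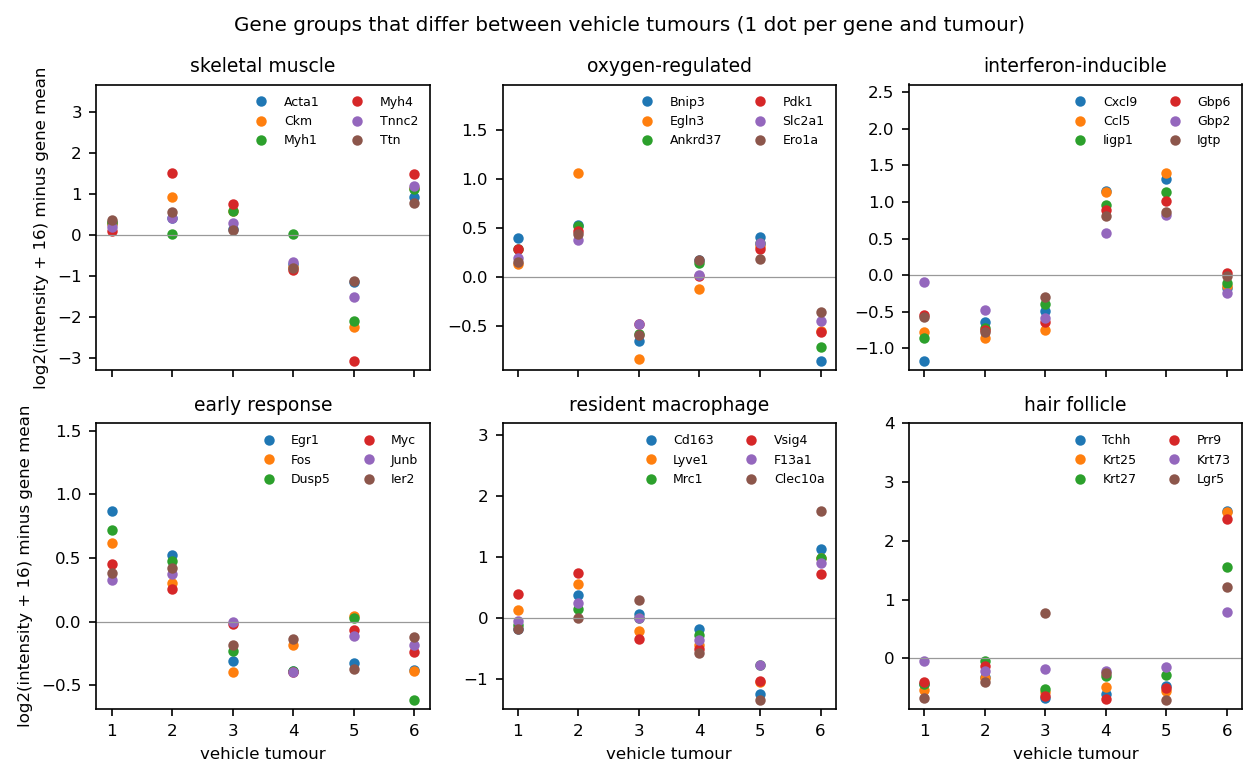
Difference of log2(intensity + 16) from the gene's own mean (y) in vehicle tumours 1 to 6 (x) for 6 genes in each of 6 groups, 1 dot per gene and tumour. Muscle genes are low in tumours 4 and 5 and oxygen-regulated genes in tumours 3 and 6, while interferon-inducible genes are high in tumours 4 and 5, Egr1, Fos, Dusp5 and Myc in tumours 1 and 2, and resident macrophage and hair follicle genes are high in tumour 6.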

How the data were processed

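RNA of 6 vehicle tumours was read on one-colour Affymetrix arrays. The deposited value table holds probe set intensities, read here as linear from their range; the submitters' processing notes name MAS5 and RMA with no role or version, so which made the table is unknown. A single gene symbol was paired with 34945 of 45037 probe sets; 932 with more than 1 and 9160 with no symbol were left out. Values were used as log2(intensity + 16), with no further normalization. Each gene took its probe set with the highest mean. Percentiles and the floor used all 18193 genes; the spread test used genes above the 25th percentile of probe sets (intensity 23.5). It was the upper tail of each variance against limma 3.58.1's robust trended prior (R 4.3.3), adjusted by Benjamini-Hochberg. On simulated data at this size (14985 genes), 32% of genes with SDs raised 4 times and 82% with 8 times were called, and 3 of 14785 unchanged genes. The number of arrays limits the precision. Named were the 25 genes with the highest mean, the 25 with the largest SD, the 10 with the smallest SD in the top 50 percent, up to 5 per list by mean, and fixed lineage and pathway genes; others were chosen after their values were seen. Members and lists were chosen with earlier results of these data known. Of 477 list genes 429 were measured, and the others are not analysed here. Alternatives covered the filter, probe set choice, normalization, pseudocount, prior, floor and each tumour left out.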

Additional observations from a re-analysis of the deposited data

Results flagged for a closer look

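In 21 of 291 genes and list means checked 1 tumour stood apart from the other 5. Its gap to the nearest tumour, as a share of the whole range, exceeded Dixon's 95 percent critical value for 6 samples. Those flagged were all genes. Chance gives about 1 in 20 for genes not picked by their values. Many of the genes checked were picked for a large SD or after their values were seen, so their number cannot be read against chance. The share of the range is given after each gene. Tumour 6 accounted for 10 of the 21. It was highest for Col1a2 (0.695), Csf1r (0.888), Krt25 (0.919), Krt27 (0.771), Krt5 (0.785), Krt73 (0.818), Prr9 (0.816) and Tchh (0.885). It was lowest for Cd44 (0.695) and Dusp4 (0.756). Tumour 1 was highest for Axl (0.666), Krt6a (0.63) and Pax5 (0.654). Tumour 2 was highest for 1700012B09Rik (0.662) and Acan (0.712) and lowest for Rps29 (0.724). Tumour 3 was lowest for H2-Aa (0.648). Tumour 4 was highest for Akt1 (0.654) and lowest for Rps4x (0.767). Tumour 5 was lowest for Myh1 (0.657) and Myhas (0.65).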

How the results depend on the processing

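The number of genes called in the spread test, 12 in limma at an adjusted p under 0.05, depended on the processing. It was 31 with no filter on dim probe sets. It was 0 with a filter at the 50th percentile, with the mean of all probe sets of a gene, with quantile normalization, with a pseudocount of 1, with the trended prior without the robust step and with the robust prior without the trend; limma then had 785, 829, 1046, 1039, 825 and 990 genes at an unadjusted p under 0.05. At an adjusted p under 0.01 it was also 0. It was 12 with the probe set of largest SD and with median centring, and 8 with a pseudocount of 64. Leaving out 1 tumour at a time gave 0 to 25 genes, 0 without tumour 3, 4 or 5. The cause was not tested. The number of genes above the floor lay between 9906, with a floor from genes of unrelated tissues, and 12636. List median percentiles shifted by -0.1 to 0.1 with quantile normalization, by -3.3 to 4.0 with a tumour left out and by -16.1 to 12.5 with the mean of all probe sets, where 21 of 32 moved. Signal near the floor limits the pigment, lymphocyte and follicle genes. No paired analysis was possible because only 1 group was used and no groups were compared.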
